A study of Mus musculus with 8 samples.

Results

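The 10 genes Glul, Oat, Slc1a2, Rhbg, Lhpp, Axin2, Lgr5, Rnf43, Znrf3 and Tbx3 are known markers of the hepatocytes beside the central vein of the liver lobule and targets of Wnt/β-catenin signalling. They were taken by symbol from a given list and not by their values, and 10 of 10 were found among the 19267 genes counted. Liver RNA of male C57BL/6 mice, 9 weeks old at sampling, was sequenced in 8 libraries. They form 4 groups of 2, with both genotypes on both diets. The mice had been pair-fed a Lieber-DeCarli liquid diet for 21 days, with 5% (w/v) alcohol in the EtOH groups and maltose dextrin of equal energy in the Control groups. The WT mice were Cre mice per the study's methods, so Cre was shared by both genotypes. The mice labelled Elf4fl/fl-Villin-Cre, called Elf4-/- here, carried floxed Elf4 alleles and a Cre driven by the villin promoter, which deletes Elf4 in the intestinal epithelium and is not aimed at liver cells. The labels do not say whether a library is 1 animal, so p-values measure the spread between these libraries, which may be technical.

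In the liver, Wnt ligands and the R-spondin Rspo3 made by endothelial cells of the central vein stabilise β-catenin in the nearest hepatocytes. β-catenin then acts with TCF/LEF factors on genes for glutamine synthesis, ammonium and glutamate uptake and drug metabolism, while urea cycle and gluconeogenic genes are strongest on the portal side. Several targets feed back on the pathway itself: Axin2 is a scaffold of the complex that degrades β-catenin, Rnf43 and Znrf3 remove Frizzled receptors from the cell surface, and Lgr5 is a receptor for R-spondins.

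In the EtOH groups Glul, Oat and Slc1a2, which handle glutamine, ornithine and glutamate, and the phosphatase gene Lhpp were higher than in the Control groups, by 1.95-fold to 3.28-fold over both genotypes. Axin2, Rnf43, Znrf3 and Tbx3 did not pass the test in any diet comparison, and Lgr5 was 1.98-fold lower over both genotypes. Rspo3 was higher under EtOH in WT and in Elf4-/- mice, although it was not called in Elf4-/- in every alternative fit.

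The 8 libraries held 6171051 to 9157362 counts, and 13993 genes had enough counts to be tested, among them the 10 genes described here. Rhbg passed the count filter only through 2 EtOH libraries. Mitochondrial-genome genes took 23.4% to 33.7% of the counts under control diet and 10.8% to 12.5% under EtOH in WT, and 18.3% to 22.1% in the Elf4-/- libraries. The log2 difference between the 2 libraries of a group had an SD over 9398 genes of 0.681 in Elf4-/- EtOH and 0.354 to 0.504 in the other 3 groups. Elf4 itself had 6 to 36 counts in the liver libraries and did not differ by genotype (adjusted p = 0.985 under EtOH and 0.912 under control diet, edgeR's quasi-likelihood test), which bears on liver and not on the intestinal deletion. The RNA was of whole liver, so the pericentral position of the genes could not be checked here, and fewer cells of a type and less RNA per cell cannot be told apart.

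Promoter sequences are shown for a gene that rose under EtOH, Oat, and for a feedback gene that did not pass the test, Axin2, because both are called Wnt targets. Each is the 250 bases before the RefSeq transcription start, read 5′ to 3′ on the gene's strand of GRCm38.p6. They lie at chr7:132576399-132576648 on the minus strand and at chr11:108920099-108920348 on the plus strand. Capitals would mark a TCF/LEF word, which is the word CTTTGTT, the word CTTTGAT, the word CTTTGTA or the word CTTTGAA on either strand, and neither window holds one.
Oat: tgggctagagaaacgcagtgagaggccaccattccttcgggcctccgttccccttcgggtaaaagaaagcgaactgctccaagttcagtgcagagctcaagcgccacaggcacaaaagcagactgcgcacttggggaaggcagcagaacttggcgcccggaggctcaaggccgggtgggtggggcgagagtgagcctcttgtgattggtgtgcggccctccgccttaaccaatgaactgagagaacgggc
Axin2: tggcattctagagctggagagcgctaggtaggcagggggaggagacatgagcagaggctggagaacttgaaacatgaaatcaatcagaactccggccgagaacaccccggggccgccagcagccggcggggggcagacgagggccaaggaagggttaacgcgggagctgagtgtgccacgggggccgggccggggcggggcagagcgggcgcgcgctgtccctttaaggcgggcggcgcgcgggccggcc
The table of RefSeq promoters held windows for 5 of the 10 genes, Glul, Oat, Slc1a2, Axin2 and Rnf43, with 6 windows in all because Rnf43 has 2 of them. A TCF/LEF word was found in 1 of the 6 windows, against 14.8% of all 32851 windows of the same length. It lies 207 bases before an internal start of Slc1a2 at chr2:102706221-102706247 on the plus strand, where the capitals are the reverse complement of CTTTGAT.
Slc1a2: gaagagggacATCAAAGgccccaaatg
A match of these letters is a description and not a binding site, and its absence from a window says nothing of regulation elsewhere at the gene.

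**Figure D1:**
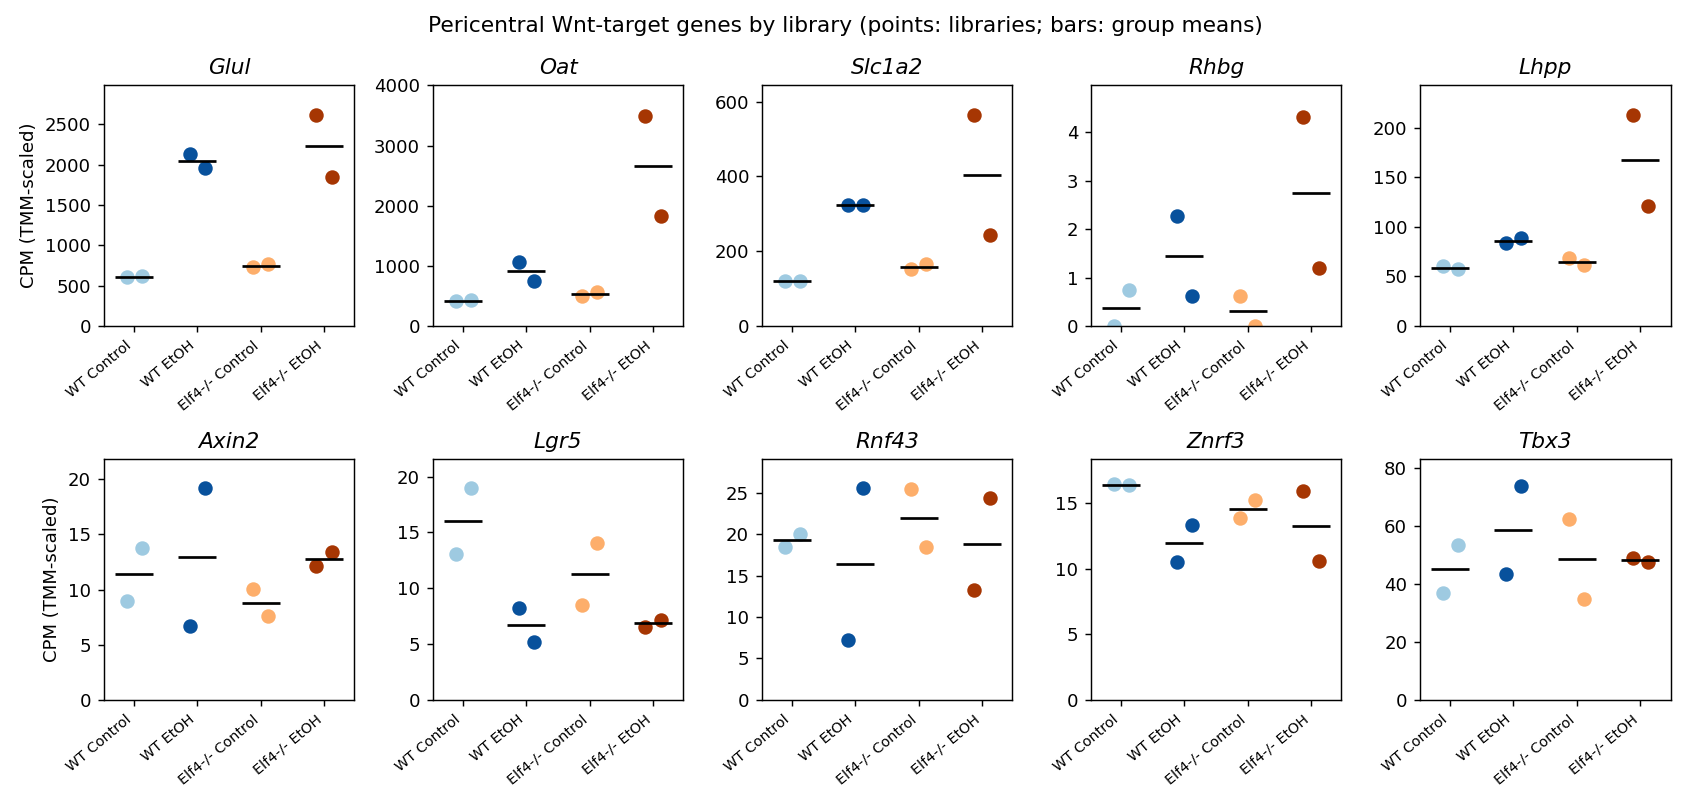
Levels in CPM (counts relative to library size, scaled by TMM) of the 10 genes in each of the 8 libraries, 1 panel per gene with its own axis from 0. Points are libraries and bars are the means of 2 libraries; Glul, Oat, Slc1a2 and Lhpp are higher in every EtOH library than in every Control library, and Lgr5 is lower.

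Levels are given as CPM, the counts relative to library size scaled by the TMM factors of edgeR. Fold changes are EtOH against Control, on the log2 scale with their SE, and a gene passed at an adjusted p under 0.05 in edgeR's quasi-likelihood test over 13993 genes.

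Glul encodes glutamine synthetase, which joins ammonium to glutamate, and lies at chr1:153899944-153909723 on the plus strand of GRCm38. Its level was 603 and 621 CPM under control diet and 2130 and 1956 under EtOH in WT, and 730.5 and 767 under control diet and 2614 and 1848 under EtOH in Elf4-/- mice. Every EtOH library was above every Control library, and the 2 EtOH groups overlapped each other. The log2 fold change was 1.74 ± 0.27 in WT (adjusted p = 0.00354) and 1.58 ± 0.27 in Elf4-/- (adjusted p = 0.0223), which is 3.34-fold and 2.98-fold. The difference between these effects was -0.16 ± 0.37, with a 95% interval from -0.98 to 0.66 (adjusted p = 0.912).

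Oat encodes ornithine aminotransferase, the mitochondrial enzyme that passes an amino group of ornithine on and yields a precursor of glutamate, and lies at chr7:132557478-132576398 on the minus strand. It was at 417 and 430 CPM under control diet and 1070 and 747 under EtOH in WT, and 494 and 567 under control diet and 3490 and 1830 under EtOH in Elf4-/- mice. The Elf4-/- EtOH libraries were the highest and lay the farthest apart, and no group overlapped another. Oat rose 2.15-fold in WT (log2 fold change 1.101 ± 0.34, adjusted p = 0.0425) and 5.01-fold in Elf4-/- (2.33 ± 0.35, adjusted p = 0.0162). The difference of 1.22 ± 0.47 between the genotypes had a 95% interval from 0.18 to 2.27 and did not pass the test (adjusted p = 0.428).

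Slc1a2 encodes a sodium-dependent glutamate transporter and lies at chr2:102658659-102790784 on the plus strand. Its level was 119 and 120.1 CPM under control diet and 324 and 322 under EtOH in WT, and 153 and 165 under control diet and 564 and 243 under EtOH in Elf4-/- mice. The WT pairs were nearly equal within each diet, while the Elf4-/- EtOH pair spanned both WT EtOH values. Slc1a2 rose 2.70-fold in WT (1.43 ± 0.34, adjusted p = 0.0167). Its 2.54-fold difference in Elf4-/- did not pass (1.34 ± 0.34, adjusted p = 0.0624), and over both genotypes it rose 2.62-fold (1.39 ± 0.24, adjusted p = 0.00301).

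Lhpp encodes a phosphatase that acts on phosphohistidine and phospholysine, and lies at chr7:132610638-132706420 on the plus strand, 34239 bases from Oat with 2 annotated genes between them. It was at 60.2 and 57.0 CPM under control diet and 83.3 and 89.2 under EtOH in WT, and 68.5 and 61.2 under control diet and 213 and 121 under EtOH in Elf4-/- mice. Both EtOH groups stood above both Control groups, and Elf4-/- EtOH stood above WT EtOH. Lhpp rose 2.58-fold in Elf4-/- (1.37 ± 0.26, adjusted p = 0.0284), whereas its 1.47-fold difference in WT did not pass (0.56 ± 0.26, adjusted p = 0.149). The difference between the genotypes was 0.81 ± 0.36 (adjusted p = 0.495).

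Rhbg encodes an ammonium transporter of the Rhesus family and lies at chr3:88242874-88254709 on the minus strand. It had 0 and 4 counts under control diet and 18 and 6 under EtOH in WT, and 6 and 0 under control diet and 27 and 9 under EtOH in Elf4-/- mice. Replicate 1 was higher than replicate 2 in both EtOH groups, and the WT groups overlapped in CPM. The ratio of the summed EtOH counts to the summed Control counts, each relative to library size, was 3.66 in WT, with an exact 95% counting interval from 1.26 to 14.5, and 7.15 in Elf4-/-, with an interval from 2.98 to 20.8. These intervals cover counting error only, and over both genotypes Rhbg did not pass the test (2.39 ± 0.89, adjusted p = 0.0702).

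The feedback genes were low, at 5.20 to 25.6 CPM, and their libraries of 1 group often differed more than the groups did. Axin2 lies at chr11:108920349-108950783 on the plus strand and was at 8.95 and 13.8 CPM under control diet and 6.70 and 19.3 under EtOH in WT, and 10.04 and 7.61 under control diet and 12.1 and 13.4 under EtOH in Elf4-/- mice. The WT EtOH pair enclosed all the other libraries, and in Elf4-/- both EtOH values were above both Control values. The log2 fold change was 0.20 ± 0.44 in WT (95% interval from -0.77 to 1.18, adjusted p = 0.773) and 0.52 ± 0.44 in Elf4-/- (from -0.45 to 1.5, adjusted p = 0.528).

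Rnf43 encodes a membrane-bound ubiquitin ligase and lies at chr11:87662722-87735539 on the plus strand. It was at 18.5 and 20.1 CPM under control diet and 7.21 and 25.6 under EtOH in WT, and 25.5 and 18.5 under control diet and 13.2 and 24.4 under EtOH in Elf4-/- mice. The lowest and the highest value of the 8 came from the same group, WT EtOH. The fold change was -0.22 ± 0.49 in WT, with a 95% interval from -1.31 to 0.87, and -0.22 ± 0.48 in Elf4-/-, with an interval from -1.30 to 0.85 (adjusted p = 0.78 and 0.826).

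Znrf3, the other ubiquitin ligase of the pair, lies at chr11:5276324-5444847 on the minus strand. It was at 16.4 CPM in both control diet libraries and 10.5 and 13.4 under EtOH in WT, and 13.8 and 15.2 under control diet and 15.9 and 10.6 under EtOH in Elf4-/- mice. WT EtOH lay below WT Control without overlap, and the Elf4-/- EtOH pair enclosed its Control pair. The fold change was -0.46 ± 0.26 in WT, with a 95% interval from -1.03 to 0.12 (adjusted p = 0.235), and -0.13 ± 0.26 in Elf4-/- (adjusted p = 0.809).

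Lgr5 is known as a stem cell marker of the intestine as well as for its place on pericentral hepatocytes, and lies at chr10:115450311-115587780 on the minus strand. It was at 13.1 and 19.0 CPM under control diet and 8.22 and 5.20 under EtOH in WT, and 8.51 and 14.0 under control diet and 6.54 and 7.16 under EtOH in Elf4-/- mice. Every EtOH library was below every Control library, by as little as 8.22 against 8.51 CPM. Lgr5 fell 2.40-fold in WT (-1.26 ± 0.35, adjusted p = 0.03). In Elf4-/- the difference was -0.70 ± 0.35, with a 95% interval from -1.49 to 0.08 (adjusted p = 0.281), and the test of the difference between the genotypes gave an adjusted p of 0.759.

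Tbx3 encodes a T-box transcription factor and lies at chr5:119670669-119684724 on the plus strand. It was at 36.9 and 53.5 CPM under control diet and 43.4 and 73.8 under EtOH in WT, and 62.6 and 34.9 under control diet and 49.1 and 47.5 under EtOH in Elf4-/- mice. The groups overlapped in both genotypes. The fold change was 0.37 ± 0.33 in WT (95% interval from -0.35 to 1.101, adjusted p = 0.436) and -0.02 ± 0.33 in Elf4-/- (from -0.74 to 0.70, adjusted p = 0.979).

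**Figure D2:**
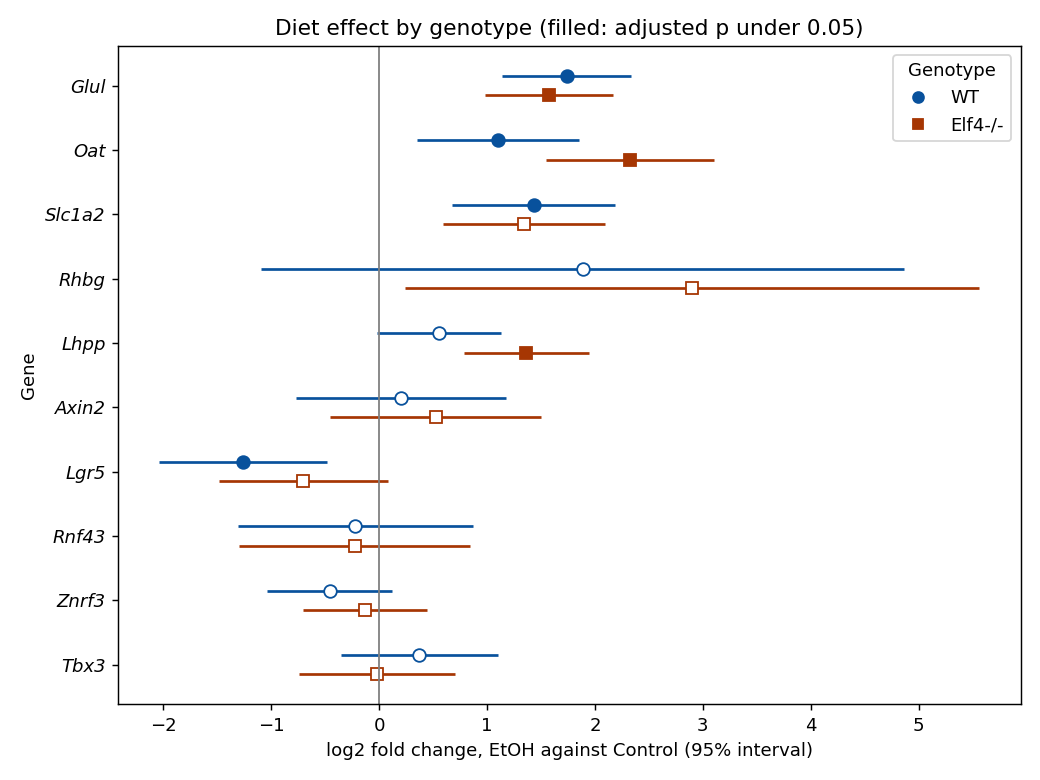
Log2 fold change of EtOH against Control for the 10 genes in WT (circles) and Elf4-/- (squares), with 95% intervals from the edgeR fit; filled symbols had an adjusted p under 0.05. Glul, Oat, Slc1a2, Rhbg and Lhpp lie to the right of 0 in both genotypes, and Lgr5 lies to the left. The intervals of Axin2, Rnf43, Znrf3 and Tbx3 cross 0 in both genotypes, as do those of Lhpp and Rhbg in WT and of Lgr5 in Elf4-/-.

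Counted as a list, 3 of the 10 genes rose (Glul, Oat and Slc1a2) and 1 fell (Lgr5) with diet in WT, where 21.6% of all genes tested were called, 10.8% in each direction. In Elf4-/-, 3 rose (Glul, Oat and Lhpp) and none fell, where 2.89% of all genes were called and 1.71% were called higher. At an unadjusted p under 0.05 the counts in Elf4-/- were 5 and 0, where 21.2% of all genes passed, and DESeq2 gave 4 and 0, where it called 6.56% of all genes. Rhbg, which passed the count filter only through EtOH libraries, is 1 of the 5. Over both genotypes 4 rose and 1 fell, where 28.0% of all genes were called, 14.1% higher and 13.8% lower. The median log2 fold change over the 10 genes was 0.47 in WT and 0.93 in Elf4-/-, beside 0.01 over all genes in each, and Rhbg entered these medians through its EtOH libraries. In WT, Glul, Oat, Slc1a2 and Lhpp were higher in both EtOH libraries than in both Control libraries, as were 34.1% of all genes, and Lgr5 and Znrf3 were lower in both, as were 32.7%. In Elf4-/-, 6 of the 10 were higher in both (these 4 with Rhbg and Axin2), against 25.8% of all genes, and Lgr5 was lower, against 26.3%. The count filter favoured Rhbg being higher under EtOH, so its place in this count is no support. The 4 genes that rose over both genotypes had no overlap between the 4 EtOH and the 4 Control libraries, as had 13.9% of all genes in that direction, and Lgr5 had none in the other, as had 14.0%.

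The counts within 1 genotype depended on single libraries. In WT, 1 or 2 of the 10 genes were called when any 1 WT library was left out, and Glul was the gene called higher each time, while the share of all genes called was then 4.28% to 11.9%. In Elf4-/-, 0 were called without Control replicate 1, without Control replicate 2 or when only the Elf4-/- libraries were fitted, while the share of all genes called was then 0.136%, 0.0609% and 0.302%. Over both genotypes Glul, Oat, Slc1a2 and Lhpp were called with any 1 of the 8 libraries left out, and Lgr5 in 5 of 8 such fits, with an adjusted p of up to 0.0743 without WT Control replicate 2, WT EtOH replicate 2 or Elf4-/- Control replicate 2.

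Scaling by library totals in place of TMM moved the median of all genes in WT by 0.43 on the log2 scale towards EtOH, and 84.4% of the genes called in WT were then higher, beside 50.2% with TMM. Over both genotypes that share was 73.8% with library totals, beside 50.5% with TMM, and in Elf4-/- it was 57.2% beside 59.2%. Of the 10 genes, 4 were then higher and 0 lower in WT, where 29% of all genes were called, beside 21.6% with TMM. Lhpp joined those called, Lgr5 was at -0.84 and no longer passed, and Rnf43 turned from -0.22 to 0.23. With the mitochondrial-genome genes left out, 3 rose and 1 fell in WT as before, where 21.2% of all genes were called.

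Elf4-/- mice were compared with WT mice under each diet, to see whether loss of Elf4 in the gut was accompanied by a change of these genes in liver. Under EtOH, 0 of the 10 genes passed, where 0.143% of all genes were called in edgeR's test, 0.121% higher and 0.0214% lower. Oat and Lhpp had an unadjusted p under 0.05, as had 10.5% of all genes, with Elf4-/- against WT differences of 1.55 ± 0.34 (adjusted p = 0.15) and 0.95 ± 0.26 (adjusted p = 0.234). For both genes the 2 Elf4-/- EtOH libraries were above the 2 WT EtOH libraries, which held for 20.0% of all genes, and 21.4% had the reverse. DESeq2 called 1 gene, Oat (adjusted p = 0.000222), where it called 1.31% of all genes, and without Elf4-/- EtOH replicate 2 edgeR called both Oat and Lhpp, where 2.48% of all genes were called. Glul differed by 0.13 ± 0.26, with a 95% interval from -0.45 to 0.71.

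Under control diet, 0 of the 10 genes passed, where 0.0143% of all genes were called, 0.00715% in each direction. None had an unadjusted p under 0.05, where 7.31% of all genes had one, and DESeq2 called none, where it called 0.668% of all genes. The differences ran from -0.52 for Lgr5 to 0.41 for Slc1a2. Glul, Oat, Slc1a2 and Lhpp were higher without overlap in Elf4-/- Control than in WT Control, as were 20.0% of all genes, and Znrf3 was lower, as were 18.5%. The interaction of genotype and diet was called for 0 of the 10 genes and for 0% of all genes, and Oat was 1 of 10 with an unadjusted p under 0.05, near the 10.1% of all genes. DESeq2 called none of the 10 for the interaction, where it called 1.26% of all genes.

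Between the 2 libraries of a group some of the genes differed in the same direction and others in the opposite one. Replicate 2 of WT EtOH was above replicate 1 by 1.79 log2 units for Rnf43, 1.49 for Axin2 and 0.76 for Tbx3. Glul differed by -0.12, Oat by -0.518, Lgr5 by -0.635 and Rhbg, with few counts, by -1.53. In Elf4-/- EtOH, the group with the widest spread of all genes, replicate 2 differed from replicate 1 by -1.21 log2 units for Slc1a2. The difference was -0.93 for Oat, -0.81 for Lhpp, -0.575 for Znrf3, -0.50 for Glul and -1.64 for Rhbg, but 0.87 for Rnf43. In Elf4-/- Control the widest gaps among genes with more than a few counts were those of Tbx3, at -0.84, and Lgr5, at 0.70.

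Levels between genes were compared as CPM per kilobase of annotated exon. Glul and Oat led in every group, at 184 ± 4.0 and 179 ± 3.8 CPM per kb (mean ± SD, n = 2) in WT Control. Their ranges overlapped there, in Elf4-/- Control and in Elf4-/- EtOH, where Oat stood first at 1130 ± 496 against 671 ± 163 for Glul. In WT EtOH Glul stood above Oat without overlap, at 615 ± 37.0 against 385 ± 96.6.

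Lhpp, Slc1a2, Tbx3 and Rnf43 followed in that order in all 4 groups, with no overlap between neighbours down to Rnf43. In WT, Lhpp was at 24.3 ± 0.93 CPM per kb under control diet and 35.7 ± 1.7 under EtOH, and Tbx3 was at 6.83 ± 1.8 and 8.84 ± 3.3. Znrf3 and Axin2 overlapped each other in every group but Elf4-/- EtOH. Lgr5 and Rhbg were last, and Lgr5 ranked above Rhbg in both Control groups and below it, with overlapping ranges, in both EtOH groups.

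Whether HTSeq counted by strand is not given in the sources used here, so reads of a gene and of its antisense neighbour cannot be told apart. This touches Tbx3, whose antisense neighbour Tbx3os1 had 139 to 507 counts, and Slc1a2, whose antisense neighbour Gm13872 had 1 to 204. Oat and Lhpp both overlap Fgfr2, which had 191 to 454 counts, and Glul overlaps Teddm2, which had 19 to 235. The other overlapping genes in the table had at most 18 counts.

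The genes whose log2 CPM, centred over the 8 libraries, lay nearest to Glul among 9397 genes were Ran, AW112010, Psmd14, Cnih1 and Hspd1, with root mean square differences from 0.122 to 0.201 log2 units. Ran encodes a nuclear transport GTPase, and it was 1.87 higher on the log2 scale under EtOH in WT and 1.49 higher in Elf4-/-. Nearest to Axin2 were Gm43127, Ift27, Nsmce1, Pgs1 and Gkap1, at 0.244 to 0.287 log2 units. The distances rest on 8 libraries that share their groups, and no test was made of them.

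The ligands of the pathway were measured in the same libraries. Of 25 Wnt, R-spondin and ligand-secretion genes listed, 8 could be tested: 3 rose with diet in WT (Rspo3, Wnt9b and Wnt5b), 1 rose in Elf4-/- (Rspo3) and 5 rose over both genotypes (with Wnt2 and Wls). None fell. Of all genes, 10.8% were called higher in WT, 1.71% in Elf4-/- and 14.1% over both genotypes. The median over the 8 was 1.65 in WT and 0.90 in Elf4-/-, beside 0.01 over all genes. Wnt9b and Wnt5a passed the count filter only through EtOH libraries. In Elf4-/-, the alternative fits that kept both libraries of each compared group called 0 to 2 genes of this list. Rspo3 was thus not called in Elf4-/- in every fit. Without WT EtOH replicate 2 the count in WT was 1, and with library totals it was 5.

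Rspo3, the R-spondin of the central vein, was at 0.56 and 0.18 CPM under control diet and 11.9 and 15.5 under EtOH in WT, and 2.15 and 2.24 under control diet and 13.7 and 8.89 under EtOH in Elf4-/- mice. Both EtOH groups were above both Control groups, and WT Control was the lowest. In WT the 4 Control and 246 EtOH counts gave a ratio of 37.5, with an exact 95% counting interval from 14.5 to 139 (adjusted p = 0.000984 in edgeR's test), and in Elf4-/- the log2 fold change was 2.35 ± 0.38 (adjusted p = 0.0183).

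Wnt9b, a ligand of the central vein endothelium, was at 0.56 and 0 CPM under control diet and 4.30 and 2.65 under EtOH in WT, and 0.82 and 0.60 under control diet and 3.19 and 4.38 under EtOH in Elf4-/- mice. Its 3 Control and 60 EtOH counts in WT gave a ratio of 12.2, with a counting interval from 3.97 to 60.8 (adjusted p = 0.0179), and Elf4-/- did not pass (2.37 ± 0.69, adjusted p = 0.0891). Wnt2, the other such ligand, was 1.97 ± 0.80 higher in WT (adjusted p = 0.105) and passed only over both genotypes (1.82 ± 0.57, adjusted p = 0.0374). Wnt5b, which is better known outside the β-catenin branch, rose by 1.84 ± 0.42 in WT (adjusted p = 0.0146).

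Since these ligands are made by endothelial cells, endothelial markers were measured beside them. The summed level of 10 liver endothelium markers was 100 to 167 CPM under control diet and 388 to 475 under EtOH in WT, and 230 to 257 under control diet and 258 to 394 under EtOH in Elf4-/- mice, and 9 of 10 rose in WT, or 4 without WT EtOH replicate 2, and 0 of 10 were called in Elf4-/-. The 5 central vein endothelium markers, 3 of which are Wnt2, Wnt9b and Rspo3 themselves, summed to 2.02 to 6.15, 26.6 to 36, 5.43 to 7.61 and 19.8 to 30.4 CPM in the same order, and 3 of 5 rose in WT and 1 of 5 in Elf4-/-. The count in WT was 1 without WT Control replicate 2, WT EtOH replicate 1 or WT EtOH replicate 2. In Elf4-/-, the alternative fits that kept both libraries of each compared group called 0 to 3 of the 5. Of all genes, 10.8% were called higher with diet in WT and 1.71% in Elf4-/-. The interaction was called for 0 of the 10 and 0 of the 5 markers, as for 0% of all genes. At an unadjusted p under 0.05, 7 of the 10 and 1 of the 5 had a lower diet effect in Elf4-/- than in WT. Of all genes, 10.1% passed at that threshold in either direction. The alternative fits that kept both libraries of each compared group called the interaction for 0 to 2 of the 10. No marker of either list was at 0 in every library. The part of these cells in the levels of the ligands and of the 10 genes was not tested.

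Stellate and Kupffer cell markers were also higher under EtOH. The 8 stellate markers summed to 35.5 to 77.6 CPM under control diet and 275 to 361 under EtOH in WT, and 105 to 141 under control diet and 216 to 343 under EtOH in Elf4-/- mice, with 6 of 8 higher in WT and 0 of 8 in Elf4-/-. The 8 Kupffer cell markers summed to 199 to 260, 625 to 697, 186 to 192 and 253 to 264 CPM, with 8 of 8 higher in WT, or 5 with either WT EtOH library left out, and 1 of 8 in Elf4-/-. Of 6 hepatocyte markers, 5 were in the table; they summed to 49500 to 68100, 29800 to 35200, 60800 to 66900 and 36700 to 49600 CPM, and 1 of 5 fell in WT. Of all genes, 10.8% were called higher and 10.8% lower in WT, and 1.71% and 1.18% in Elf4-/-. The interaction was called for 0 of the 8 stellate, 0 of the 8 Kupffer cell and 0 of the 5 hepatocyte markers, as for 0% of all genes. At an unadjusted p under 0.05, 3 stellate, 6 Kupffer cell and 0 hepatocyte markers had a lower diet effect in Elf4-/- than in WT. Of all genes, 10.1% passed at that threshold in either direction. Under EtOH, 2 of 8 Kupffer cell markers were called lower in Elf4-/- than in WT, where 0.0214% of all genes were. The alternative fits that kept both libraries of each compared group called 0 to 4 of the 8 lower. The median log2 difference over the 8 was -1.4, and -1.52 to -1.28 with any 1 library left out. The part of these cells in the diet differences was not tested.

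**Figure D3:**
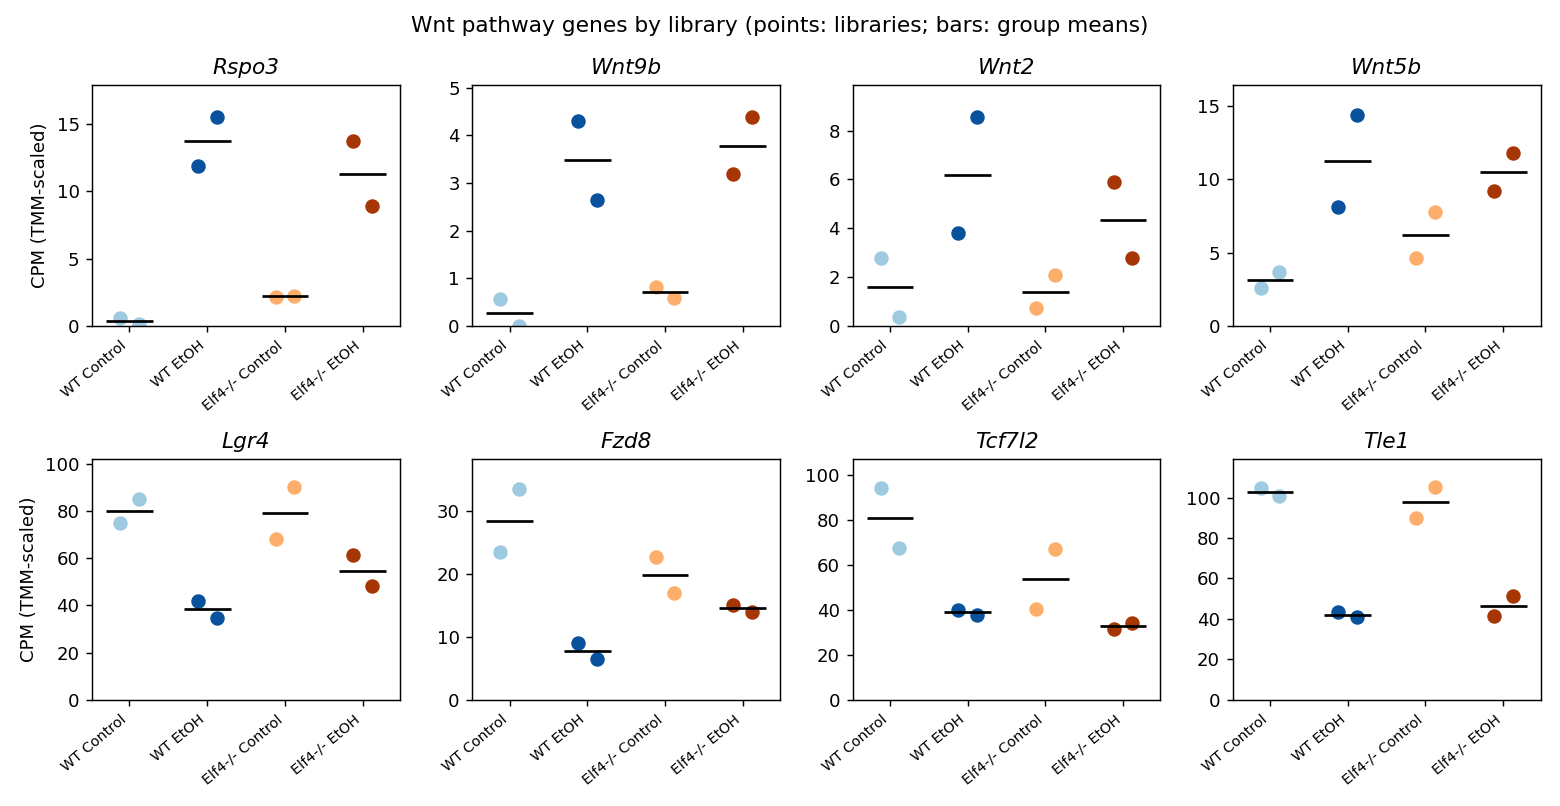
CPM (scaled by TMM) of 8 Wnt pathway genes in each library, 1 panel per gene with its own axis from 0; points are libraries and bars are means of 2. Rspo3 is highest in the 4 EtOH libraries, at 8.89 to 15.5 CPM, and Tle1 is lowest in them.

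Receptors, transducers, nuclear factors and inhibitors of the pathway are read against the share of all genes that passed the diet test. That share was 21.6% for WT mice but only 2.89% for Elf4-/- mice. With so few genes passing in Elf4-/-, a short list with none there does not show a difference between the genotypes. Of 11 receptors and co-receptors tested of 17 listed, 1 rose and 2 fell in WT and none was called in Elf4-/-. Without WT EtOH replicate 2, 0 rose and 1 fell in WT, and with library totals 3 rose and 2 fell. Lgr4, the R-spondin receptor most abundant in these libraries, was at 75.0 and 85.2 CPM under control diet and 42.0 and 34.6 under EtOH in WT, and fell by 1.07 ± 0.22 on the log2 scale (adjusted p = 0.0101). In Elf4-/- Lgr4 was at 68.2 and 90.1 CPM in Control and 61.4 and 48.0 in EtOH, a difference of -0.53 ± 0.22 (adjusted p = 0.199). The Frizzled receptor gene Fzd8 fell by 1.89 ± 0.28 in WT (adjusted p = 0.00293), Ryk, a co-receptor, rose by 0.71 ± 0.21 (adjusted p = 0.0385), and Lrp6, the co-receptor of the β-catenin branch, was at 0.20 ± 0.17 (adjusted p = 0.444).

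Of 12 genes of the β-catenin complex, 1 rose and 2 fell in WT and none was called in Elf4-/-. In WT, 0 were called without WT EtOH replicate 2 and 1 rose without WT EtOH replicate 1, and 1 rose and 4 fell with either Elf4-/- EtOH library left out. Ctnnb1, β-catenin itself, was at 77.9 ± 4.1 CPM (mean ± SD, n = 2) under control diet and 103 ± 9.8 under EtOH in WT, and did not pass (0.40 ± 0.18, adjusted p = 0.139 in WT, and 0.31 ± 0.18, adjusted p = 0.361 in Elf4-/-). Dvl2, which relays the Wnt signal, rose by 1.08 ± 0.21 in WT (adjusted p = 0.00801), and Btrc, which marks β-catenin for degradation, fell by 1.20 ± 0.28 (adjusted p = 0.0152).

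Of 6 TCF/LEF factors and co-activators tested of 8 listed, none rose and 2 fell in WT, and none was called in Elf4-/-. The 2 became 0 without WT Control replicate 1, with either WT EtOH library left out or with library totals, and 1 without WT Control replicate 2, with either Elf4-/- Control library left out or with DESeq2. Tcf7l2, the main TCF factor of hepatocytes, was at 94.2 and 67.3 CPM under control diet and 39.96 and 37.8 under EtOH in WT, and fell by 1.05 ± 0.26 (adjusted p = 0.0197). Among 7 inhibitors tested of 18 listed, Tle1, a co-repressor that binds TCF factors, was the only gene called: it fell by 1.29 ± 0.19 in WT (adjusted p = 0.00314) and by 1.08 ± 0.19 in Elf4-/- (adjusted p = 0.0258). The alternative fits that kept both libraries of each compared group called 1 inhibitor lower in WT, but 0 to 1 in Elf4-/-. The Wnt targets Nkd1, Notum and Sp5 did not pass in either genotype, at 0.06 ± 0.37, -0.50 ± 0.26 and 0.05 ± 0.59 in WT. Axin2, Rnf43 and Znrf3 likewise did not pass, which does not show that their levels were equal.

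The other markers of the 2 sides of the lobule were set beside the 10 genes. Of 16 further pericentral hepatocyte genes, 6 rose and 1 fell in WT, where 10.8% of all genes were called in each direction. In Elf4-/- 7 rose, where 1.71% of all genes were called higher. Over both genotypes 10 rose and 1 fell, where 14.1% of all genes were called higher and 13.8% lower. The medians were 0.67 in WT and 1.17 in Elf4-/-. Cyp2e1, the ethanol-oxidising cytochrome, was at 2480 ± 564 CPM under control diet and 5210 ± 506 under EtOH in WT and rose by 1.07 ± 0.29 (adjusted p = 0.0287), with 0.76 ± 0.29 in Elf4-/- (adjusted p = 0.175). Cyp2c29 rose by 5.03 ± 0.67 in WT (adjusted p = 0.00227) and by 3.95 ± 0.64 in Elf4-/- (adjusted p = 0.0183), and Cyp2a5 by 3.67 ± 0.42 and 2.69 ± 0.41 (adjusted p = 0.0015 and 0.0162), although reads of close Cyp2 copies could have been split between genes. Slc22a3, an organic cation transporter, fell by 0.94 ± 0.27 in WT (adjusted p = 0.0364). In Elf4-/- this list, too, had 0 genes called with either Control library left out and when the Elf4-/- libraries were fitted alone.

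Of 20 periportal hepatocyte genes, 0 rose and 11 fell in WT, where 10.8% of all genes were called lower. In Elf4-/- 0 were called, where only 1.18% of all genes were called lower. Over both genotypes 13 fell, where 13.8% of all genes were called lower. The medians were -1.36 in WT and -0.46 in Elf4-/-. Sult5a1 fell by 3.27 ± 0.67 in WT (adjusted p = 0.00946), and Pck1, which opens gluconeogenesis, by 1.74 ± 0.49 (adjusted p = 0.0335). Cps1, the first enzyme of the urea cycle, did not pass in WT (-1.25 ± 0.50, adjusted p = 0.1) or in Elf4-/- (0.06 ± 0.49, adjusted p = 0.957). The count in WT ranged from 2 without WT EtOH replicate 2 and 5 without WT Control replicate 2 to 12. The interaction was called for 0 of the 20 in edgeR's test, as for 0% of all genes. At an unadjusted p under 0.05 there were 6, where 10.1% of all genes passed. DESeq2 called 2, where it called 1.26% of all genes. For genotype under EtOH, 0 were called in edgeR's test, where 0.143% of all genes were called. At an unadjusted p under 0.05, 10 were higher, where 10.5% of all genes passed in either direction. By DESeq2 7 were higher, where it called 1.31% of all genes.

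**Figure D4:**
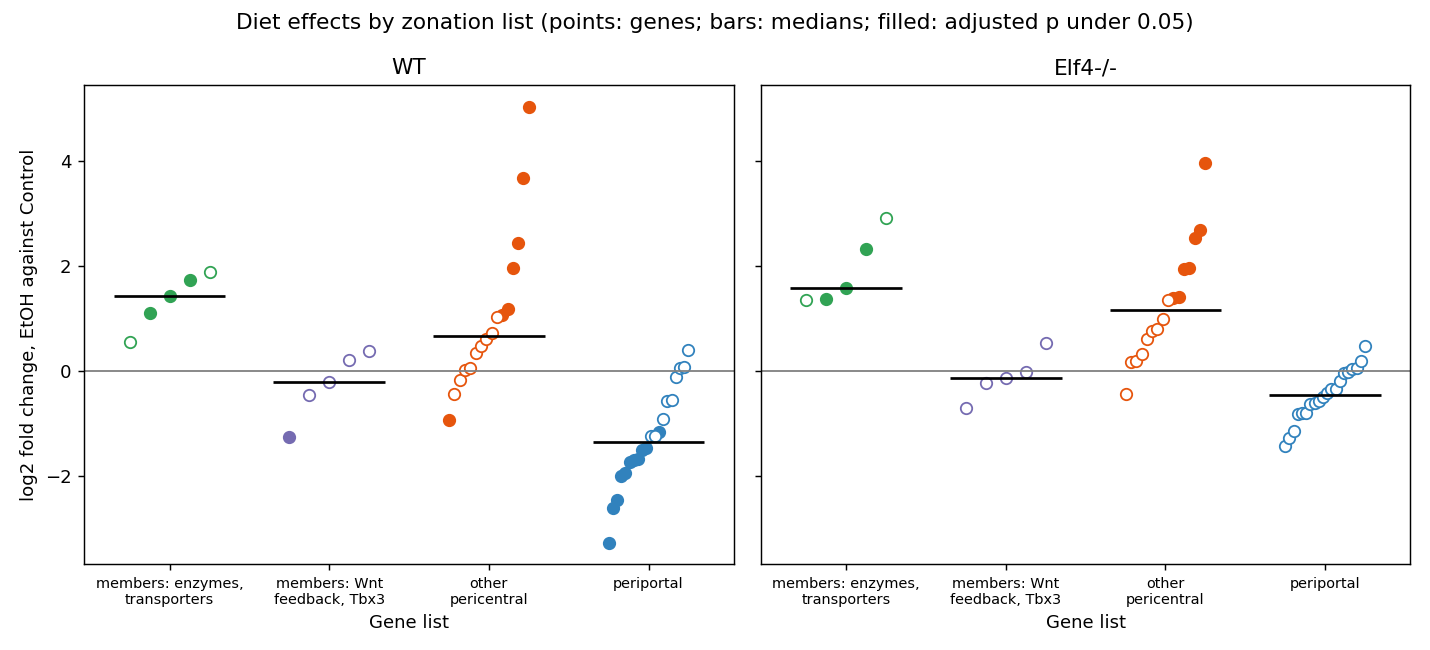
Log2 fold change of EtOH against Control in WT (left) and Elf4-/- (right), with the 10 genes split by role into enzymes and transporters (Glul, Oat, Slc1a2, Rhbg, Lhpp) and Wnt feedback genes with Tbx3, beside 16 other pericentral and 20 periportal genes. Points are genes, bars are medians and filled points had an adjusted p under 0.05; the medians of the other pericentral genes, 0.67 and 1.17, lie above 0 and those of the periportal genes, -1.36 and -0.46, below it.

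Genes around glutamine and ammonium were measured beside Glul. Of all genes, 10.8% were called lower with diet in WT and 1.18% in Elf4-/-. Of 14 tested of 18 listed, 0 rose and 4 fell in WT, or 2 with either WT EtOH library left out, and none was called in Elf4-/-. Slc38a3, the glutamine transporter of hepatocytes, was at 1810 ± 192 CPM under control diet and 432 ± 5.7 under EtOH in WT and fell by 2.07 ± 0.26 (adjusted p = 0.00196), against -0.80 ± 0.26 in Elf4-/- (adjusted p = 0.113). Gls2, the liver glutaminase that splits glutamine, fell by 1.95 ± 0.30 in WT (adjusted p = 0.00359), with -0.64 ± 0.29 in Elf4-/- (adjusted p = 0.246). The difference between the genotypes did not pass for either gene, at 1.27 ± 0.36 for Slc38a3 (adjusted p = 0.31) and 1.31 ± 0.42 for Gls2 (adjusted p = 0.346).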

How the data were processed

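Liver RNA was sequenced in 8 libraries of 4 groups. Per the study's methods and the submitters' processing notes, the authors mapped the reads to mm10 with HISAT2, sorted them with SAMtools, counted reads per gene with HTSeq and tested them with DESeq2. Versions, annotation and strand setting were not given in the sources used here. The deposited table holds whole-number counts per gene symbol, not normalized, with 1 column per library.

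The counts were tested in edgeR 4.0.16 under R 4.3.3 (filterByExpr by group with a minimum count of 10, TMM, 1 factor of 4 groups with no covariate, glmQLFit and glmQLFTest), with Benjamini-Hochberg adjustment over 13993 genes and a threshold of 0.05. The tested genes held at least 99.76% of each library's counts, and the common biological coefficient of variation was 22.7%. The diet effect over both genotypes is the mean of the WT and Elf4-/- contrasts, and the interaction is their difference. SEs and 95% intervals come from the same fit. For likeness, log2 CPM used a prior count of 2 over genes averaging at least 50 counts. Ratios of summed counts have exact conditional binomial intervals, given where a group held 10 or fewer counts; they cover counting error only, since PCR copies were not separated. Positions and exon lengths are from GENCODE M21 of GRCm38, the assembly of mm10, and promoters from RefSeq for GRCm38.p6. The code was tested on simulated counts.

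The 10 genes were all named. From each other list, the called genes with the largest changes, the 2 with the highest counts and some set genes were named, for those the text takes up. The list of 10 genes and the other lists use known roles and no values, but they were drawn up with earlier results of these data known. Alternatives were DESeq2 1.42.0, its size factors, library totals, mitochondrial genes left out, no count filter, only the compared libraries, a replicate block and each library left out.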

Additional observations from a re-analysis of the deposited data

How the results depend on the processing

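With 2 libraries per group, the SE of the diet effect was largest for the low genes Rhbg, Rnf43 and Axin2. It was 1.34, 0.49 and 0.44 for them in WT, and 1.19, 0.48 and 0.44 in Elf4-/-. The low genes Lgr5 and Znrf3 had SEs of 0.35 and 0.26 in WT, near the 0.34 of Oat and 0.27 of Glul. The part of depth in these SEs was not tested. With each library left out in turn, the number of the 10 genes called changed for diet in WT, diet in Elf4-/-, diet over both genotypes and genotype under EtOH. The share of all genes called changed in these fits too. With all 8 libraries the numbers were 4, 3, 5 and 0, where 21.6%, 2.89%, 28.0% and 0.143% of all genes were called. For genotype under control diet and for the interaction the number did not change. A fit of only the compared libraries called 0 of the 10 for diet in Elf4-/-, where 0.302% of all genes were called. DESeq2 called 1 of the 10 for genotype under EtOH, where it called 1.31% of all genes. Why the numbers changed between fits was not tested.

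Some fold changes near 0 turned sign with a library left out. For diet in WT they ran from -0.77 to 0.76 for Axin2, -1.42 to 0.41 for Rnf43 and -0.066 to 0.70 for Tbx3. For diet in Elf4-/- they ran from -0.76 to 0.14 for Rnf43, -0.45 to 0.12 for Znrf3 and -0.38 to 0.46 for Tbx3. Over both genotypes they ran from -0.13 to 0.63 for Axin2, -0.83 to 0.083 for Rnf43 and -0.052 to 0.42 for Tbx3. For genotype under EtOH the ranges were -0.14 to 0.35 for Glul and -0.40 to 0.80 for Slc1a2, and for the interaction -0.43 to 0.053 for Glul and -0.82 to 0.38 for Slc1a2. With library totals, Rnf43 in WT was at 0.23 and Glul under EtOH by genotype at -0.11. Other members' genotype and interaction values, 18 in all, were never called, and 15 of them turned sign in some refit.

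Groups share replicate numbers, but the deviations of same-numbered libraries correlated at only -0.109 to 0.0594 over 6 pairs of groups, so the numbers were not taken as pairs. With a replicate block the 10 genes gave 4 calls for diet in WT, 3 in Elf4-/- and 5 over both genotypes, as without it. The shares of all genes called were then 18.9%, 1.72% and 26.1%.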

Other observations

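Markers of the remaining cell types were measured too. Of all genes, 10.8% were called higher and 10.8% lower with diet in WT, and 1.71% and 1.18% in Elf4-/-. The 7 bile duct markers summed to 113 to 148 CPM in WT Control and 69.2 to 75.9 in WT EtOH, and to 77.4 to 187 and 70 to 100 in the Elf4-/- groups, with none of 6 tested called in either genotype. The 5 red blood cell markers summed to 130 to 184 CPM in WT Control, 89.3 to 108 in WT EtOH, 87.4 to 229 in Elf4-/- Control and 95.9 to 117 in Elf4-/- EtOH, and 2 of 5 fell in WT. Neutrophil markers in the table (4 of 6) summed to 1.02 to 13.2 CPM over the 8 libraries, and the 6 lymphocyte markers to 1.34 to 8.36 CPM. Acinar markers in the table (2 of 6) summed to 2.75 to 9.55 CPM, and intestinal epithelium markers (4 of 6) to 36.9 to 113 CPM. None of these last 4 lists had a gene called with diet within 1 genotype. In Elf4-/-, 3 of 3 tested neutrophil markers were higher at an unadjusted p under 0.05, where 21.2% of all genes passed in either direction. S100a8, S100a9 and Retnlg had 26, 45 and 12 counts in Elf4-/- EtOH replicate 1, but 5, 8 and 0 in replicate 2. The neutrophil sum was 1.02 to 1.79 CPM in Elf4-/- Control and 1.72 to 13.2 in Elf4-/- EtOH. Over both genotypes 1 of 3 tested neutrophil markers, S100a9, was called higher and 1 of 6 tested bile duct markers, Sox9, was called lower. Of all genes, 14.1% were called higher and 13.8% lower there. Both markers were named after their values were seen.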
